A study of Arabidopsis thaliana with 4 samples.

Results

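Plants read blue and UV-B light through a small set of photoreceptor proteins, and the transcripts of 9 of their genes were compared between Arabidopsis thaliana seedlings mutant in phytochrome B, the main red-light receptor, and the wild type. The genes were taken by locus code from the 27416 gene models of the deposited values: the cryptochromes CRY1, CRY2 and CRY3, the phototropins PHOT1 and PHOT2, the UV-B receptor UVR8, and the F-box photoreceptors ZTL, FKF1 and LKP2. All 9 were present in both genotypes, each as 1 gene model, and all 9 passed the filter used for every gene, a mean of at least 1 RPKM over both genotypes. RPKM, reads per kilobase of coding length and per 1000000 reads of the column, allows levels of different genes to be compared.

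The mutant group was phyB and its control was WT, both in the Col-0 accession. The labels give no allele for phyB, and both genotypes shared all other conditions. After 4 days at 4°C on 1/2 MS medium with 1% sucrose, seeds received 12 h of white light and then 4 days of red light, whose intensity was 60 μmol per m2 per s, which gave whole seedlings grown for 4.5 days. Each genotype has 2 samples in the labels, while its values come as 1 column of reads and 1 of RPKM. The sources used here do not give whether such a column is a sum of both samples or 1 library. No difference could therefore be set against a spread between replicates, and no test was made. Intervals given below are exact 95% intervals that cover the counting error of reads only. The titles of the WT samples carry a word for a repeated analysis that the phyB titles lack, so genotype and any batch of this kind cannot be told apart.

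Cryptochromes are flavin-binding proteins related to DNA photolyases. In blue light CRY1 and CRY2 inhibit the COP1/SPA ubiquitin ligase, limit hypocotyl growth and, in the case of CRY2, promote flowering, while CRY3 is located in chloroplasts and mitochondria. Phototropins are membrane-associated kinases with a pair of flavin-binding LOV domains, and they direct phototropism, chloroplast movement and stomatal opening. ZTL, FKF1 and LKP2 join a single LOV domain to an F-box and kelch repeats and mark clock and flowering proteins for degradation, and UVR8 senses UV-B through its own tryptophans and has no bound pigment. None of these proteins is a receptor for red light, the light in which these seedlings had grown, whereas phytochromes absorb red and far-red light.

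The LOV domain holds its flavin without a covalent bond in the dark, and in blue light a conserved cysteine forms a covalent bond with it. The 8 codons around that cysteine are shown for the 5 LOV genes because they are the photochemical centre of these receptors and let a reader see how far the relatives differ as nucleotides. They are spliced coding sequences read from the TAIR10.1 reference, 5′ to 3′ on the coding strand, with the cysteine codon in capitals.
PHOT1 LOV1: ggcagaaacTGCcgatttttacaa
PHOT1 LOV2: ggaagaaatTGCaggtttctacaa
PHOT2 LOV1: ggaagaaacTGCcggtttctgcaa
PHOT2 LOV2: gggagaaatTGTcggtttcttcag
ZTL: ggaggaaatTGCcgcttcttgcaa
FKF1: ggtcgtaacTGTcgattcctacag
LKP2: ggtcgaaatTGCcgtttcttgcaa
With the intron included, these stretches lie at chr3:16819247-16819809 and chr3:16821180-16821291 for PHOT1, at chr5:23525269-23525415 and chr5:23526931-23527083 for PHOT2 and at chr5:23241831-23242684 for ZTL, all on the plus strand. The stretch of FKF1 lies at chr1:25508998-25509122 on the plus strand and that of LKP2 at chr2:8196370-8197021 on the minus strand. All 7 stretches are interrupted by an intron. In 5 of them, the LOV1 domains of both phototropins and the single domain of ZTL, FKF1 and LKP2, the intron falls after base 2 of the cysteine codon itself. In the other 2, the LOV2 domains of PHOT1 and PHOT2, it falls after base 2 of the next codon. The second codon encodes glycine in ZTL and arginine in the other 6 stretches.

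UVR8 absorbs UV-B through tryptophans that sit in short repeats. A stretch of 5 codons with the tryptophan codon in capitals occurs 3 times in its coding sequence, on the minus strand of chromosome 5, and no intron splits it.
UVR8 repeat a: ggaTGGcggcacaca
UVR8 repeat b: ggtTGGagacataca
UVR8 repeat c: ggaTGGagacatacc
In this order they lie at chr5:25556492-25556506, chr5:25556131-25556145 and chr5:25555602-25555616. No member shared a word of 36 nt with the coding sequence of any other nuclear gene. ZTL and LKP2 were the most alike of the 7 pairs compared, with 72.8% identity over aligned coding bases, and PHOT1 and PHOT2 had 65.8% and CRY1 and CRY2 63.0%.

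The column totals were 33201394 reads in phyB and 33521717 reads in WT. The PHYB transcript itself was present in both genotypes, at 14.1 RPKM in phyB and 36.3 RPKM in WT. Markers of green tissue (RBCS1A, LHCB1.3, RCA and GAPA) lay between 1143 and 12679 RPKM in phyB and between 1351 and 13693 RPKM in WT, with sums of 28252 and 28877 RPKM in phyB and WT. Root markers (BGLU23, COBL9, EXPA7 and CASP1) were detected in both genotypes and summed to 2632 RPKM in phyB and 3513 RPKM in WT. BGLU23 made up most of this sum, at 2384 RPKM in phyB and 3280 RPKM in WT, while the log2 ratios of EXPA7 and CASP1 were above 0, at 0.30 and 0.09. Markers of guard cells and veins (FAMA, KAT1, SUC2 and APL) summed to 67.1 RPKM in phyB and 80.1 RPKM in WT. SUC2 made up most of this sum, at 42.7 RPKM in phyB and 55.8 RPKM in WT. The log2 ratio was -0.44 for FAMA, -0.02 for KAT1 and 0.14 for APL. Seed markers (OLEO1, EM6, CRA1 and SESA1) summed to 14.1 RPKM in phyB and 23.7 RPKM in WT, and differed in direction, with EM6 at 1.19 RPKM in phyB and 10.8 RPKM in WT and SESA1 at 3.77 RPKM in phyB and 1.87 RPKM in WT. Of the flower markers, AP1 had 0 reads in both, AG had 0 reads in phyB and 1 read in WT, and AP3 and PI were at most at 1.78 RPKM. In whole seedlings fewer cells of a type and less RNA per cell cannot be told apart, and the part of tissue makeup in the results below was not tested.

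**Figure D1:**
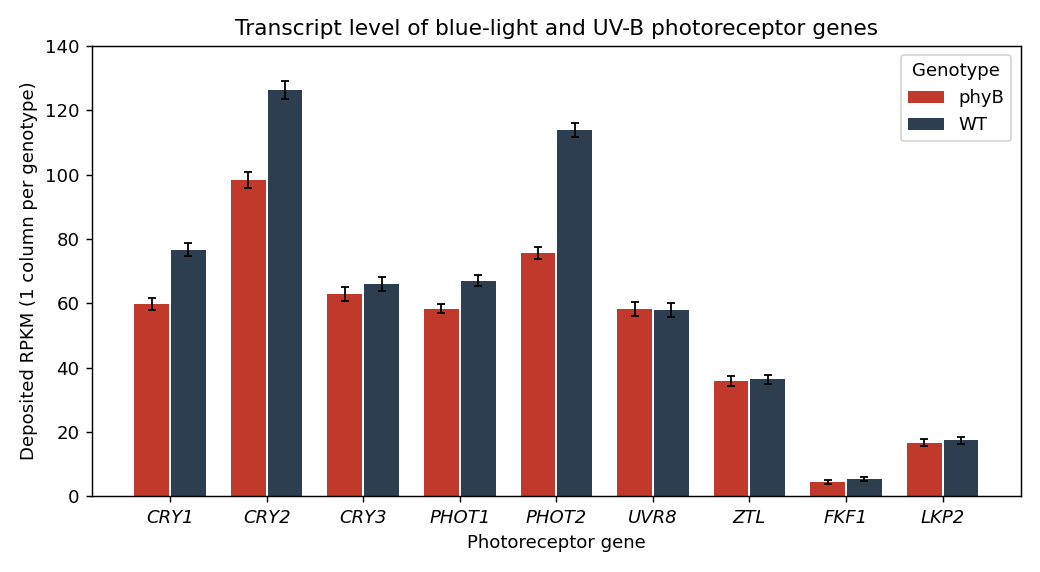
Deposited RPKM of the 9 photoreceptor genes in phyB (red, left of each pair) and WT (dark, right), on a linear axis from 0, with 95% intervals for counting error only. CRY2 and PHOT2 are the highest in both genotypes, and the gap between genotypes is widest for PHOT2, at 75.7 RPKM in phyB and 114 RPKM in WT.

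Among the 9 genes PHOT2 differed most between genotypes, followed by CRY1 and CRY2, while UVR8, ZTL and LKP2 had nearly the same level in both. The 9 log2 ratios of RPKM, phyB over WT, ran between -0.59 and 0.01 with a median of -0.20, beside a median of -0.01 and quartiles of -0.25 and 0.26 over the 19296 genes that passed the filter, called all genes or described genes here. No member reached 2-fold in either direction, where 5.38% of all genes did. PHOT2 was the 1 member at 1.5-fold or more and was lower in phyB, where 7.27% of all genes were 1.5-fold or more lower and 9.75% were 1.5-fold or more higher. Its log2 ratio is close to that threshold, which is 0.585 on this scale, and fell short of it under 6 of the 9 alternative settings, at -0.58 with TMM factors and at -0.41 with the trend on coding length removed. Ratios were below 0 for 8 of the 9 members, beside 51.0% of all genes. For 6 of the 9 the counting interval lay wholly below 0 and for none wholly above, beside 32.0% and 29.8% of all genes. This count depends on the scaling, since CRY3 and FKF1 were at the margin, with upper ends at -0.004 and -0.005. Median scaling adds 0.009 to every ratio, which is more than either distance from 0. Counting intervals narrow with depth, so that in deeply read genes a small difference between both columns is enough to leave 0 outside. The differences are small against the full range of genes. Of all genes 35.7% had a ratio at least as far from 0 as that of CRY2, and 16.8% one at least as far as that of PHOT2.

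The cryptochromes CRY1 and CRY2, the main blue-light receptors of growth and flowering, were both lower in phyB, and by the same proportion. CRY1 (AT4G08920, chr4:5723651-5727268 on the plus strand, 4 exons, 2046 nt of coding sequence) had 4059 reads and 59.8 RPKM in phyB, against 5259 reads and 76.7 RPKM in WT. CRY2 (AT1G04400, chr1:1185512-1188696 on the minus strand, 5 exons in the model used, 1839 nt) had 6003 reads and 98.3 RPKM in phyB, against 7789 reads and 126 RPKM in WT. In both genes the phyB column was the lower, and the counting interval of the ratio lay wholly below 0, as for 32.0% of all genes. The log2 ratio was -0.36 for CRY1, with an interval from -0.42 to -0.30, and -0.36 for CRY2, with an interval from -0.41 to -0.31. CRY1 stood at 0.608 times the level of CRY2 in phyB and at 0.607 times in WT. The difference between both ratios was 0.002 on the log2 scale, with a counting interval from -0.07 to 0.08. This comparison rests on the reads of both genes within each column and needs no scaling between columns.

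CRY3, the cryptochrome of the organelles, was close to equal in both genotypes. CRY3 (AT5G24850, chr5:8535258-8538211 on the minus strand, 12 exons) had 3293 reads and 62.7 RPKM in phyB, against 3497 reads and 66.0 RPKM in WT, a log2 ratio of -0.07 with an interval from -0.14 to -0.004. Its deposited RPKM rests on 1581 nt, while the reference annotates 1710 nt of coding sequence, at which its level would be 58.0 RPKM in phyB and 61.0 RPKM in WT, with the same ratio between genotypes. CRY1 stood at 0.952 times the level of CRY3 in phyB, where their counting intervals overlapped, and at 1.16 times in WT, where they did not. With the annotated length of CRY3 these were 1.03 times in phyB, where the intervals again overlapped, and 1.26 times in WT. The difference of -0.29 between their log2 ratios had a counting interval from -0.38 to -0.20, and was -0.22 with the trend on coding length removed.

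The phototropins differed from each other. PHOT1 (AT3G45780, chr3:16816721-16824210 on the plus strand, 21 exons, 2991 nt), the phototropin that responds to weak light in phototropism, had 5792 reads and 58.3 RPKM in phyB, against 6719 reads and 67.0 RPKM in WT. PHOT2 (AT5G58140, chr5:23523825-23533111 on the plus strand, 24 exons in the model used, 2748 nt), which mediates the avoidance movement of chloroplasts in strong light, had 6904 reads and 75.7 RPKM in phyB, against 10483 reads and 114 RPKM in WT. Both were lower in phyB, PHOT2 by more, and for both the counting interval of the ratio lay wholly below 0, as for 32.0% of all genes. The log2 ratio was -0.20 for PHOT1, with an interval from -0.25 to -0.15, and -0.59 for PHOT2, with an interval from -0.63 to -0.54. PHOT2 therefore stood at 1.3 times the level of PHOT1 in phyB and at 1.70 times in WT. It made up 56.5% of the summed RPKM of the pair in phyB and 62.9% in WT. The difference of -0.39 between both log2 ratios had a counting interval from -0.46 to -0.32, and was -0.40 after correction for coding length, which is described further on. The reference lists 7 isoforms of PHOT2, which 1 gene model cannot separate. The annotated gene overlaps AT5G58150 on the opposite strand over 2760 nt, all outside the coding sequence, and that neighbour had 357 reads in phyB and 401 reads in WT.

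UVR8 (AT5G63860, chr5:25554416-25559499 on the minus strand, 13 exons, 1323 nt) had the most even values. It was read 2558 times in phyB and 2568 times in WT, at 58.2 RPKM in phyB and 57.9 RPKM in WT. Its log2 ratio of 0.01 had an interval from -0.07 to 0.09, which excludes a difference as large as that of CRY1, CRY2 or PHOT2 as far as counting error goes. An interval of this width does not show that the levels were equal, since variation between seedlings is not in it.

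Of the F-box photoreceptors, ZTL, which targets the clock proteins TOC1 and PRR5, was the most abundant. ZTL (AT5G57360, chr5:23241320-23244590 on the plus strand, 3 exons in the model used, 1881 nt) had 2233 reads and 35.8 RPKM in phyB, against 2289 reads and 36.3 RPKM in WT, a log2 ratio of -0.02 with an interval from -0.11 to 0.06. LKP2 (AT2G18915, chr2:8194512-8197483 on the minus strand, 2 exons, 1836 nt) had 1018 reads and 16.7 RPKM in phyB, against 1068 reads and 17.4 RPKM in WT, a log2 ratio of -0.06 with an interval from -0.18 to 0.07. The intervals of ZTL and LKP2 both include 0. LKP2 lies 50050 nt from PHYB on chromosome 2, and 142 nt of its coding sequence overlap a non-coding gene on the opposite strand, AT2G18917, whose reads could not be told apart without the use of strand. FKF1 (AT1G68050, chr1:25508639-25510907 on the plus strand, 2 exons, 1860 nt), which with GIGANTEA removes the CDF repressors of flowering, was the least abundant. It had 275 reads and 4.45 RPKM in phyB, against 328 reads and 5.26 RPKM in WT, a log2 ratio of -0.24 with the widest interval of the 9, from -0.48 to -0.005. The ratio of FKF1 differed from that of ZTL by -0.22 on the log2 scale, with a counting interval from -0.47 to 0.03, and from that of LKP2 by -0.19, with an interval from -0.45 to 0.08. The difference between LKP2 and ZTL was -0.03, with an interval from -0.19 to 0.12, so at this depth none of these 3 pairs was set apart.

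**Figure D2:**
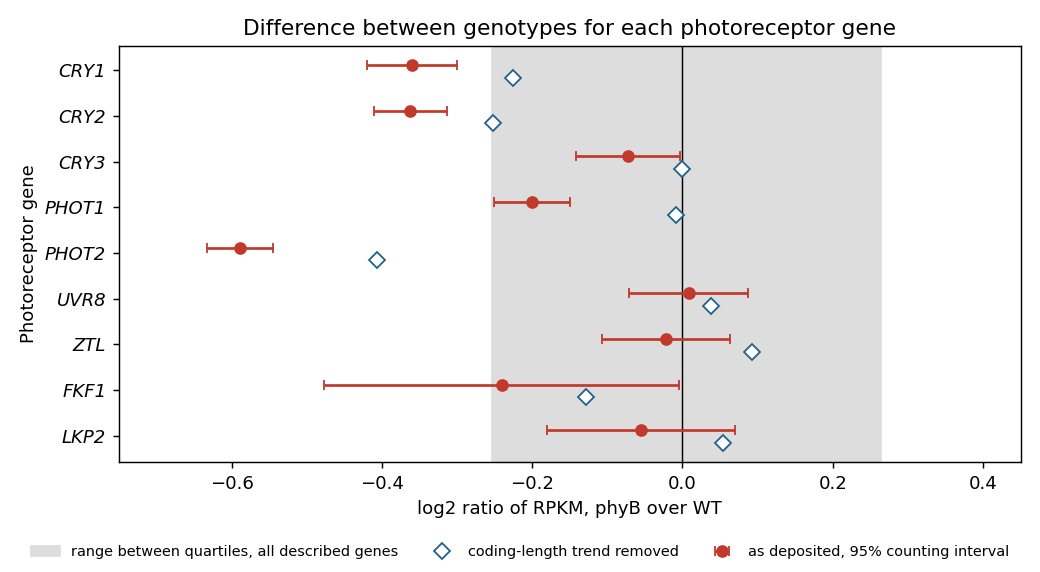
Log2 ratio of RPKM, phyB over WT, of each photoreceptor gene as deposited (circles, with 95% counting intervals) and after removal of the trend on coding length (diamonds), beside the range between the quartiles of the 19296 described genes (grey band, -0.25 to 0.26). PHOT2, CRY1 and CRY2 lie left of the band as deposited, and PHOT2, at -0.41, does so with the trend removed, where CRY2 lies at its edge.

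The order of levels was similar in both genotypes at its ends and differed in the middle. CRY2 was the highest member and PHOT2 the next in both genotypes, and UVR8, ZTL, LKP2 and FKF1 followed in this order at the low end of both. In phyB, CRY3, CRY1, PHOT1 and UVR8 lay between 62.7 and 58.2 RPKM, and each overlapped its neighbour in the order within counting error. With the annotated length of CRY3, an alternative chosen after seeing the data, CRY3 came last of these 4 in phyB, just below UVR8, and overlapped the other 3. In WT, CRY1 was above PHOT1 beyond counting error, PHOT1 and CRY3 overlapped, and CRY3 was above UVR8. At its annotated length CRY3 kept this place in WT but overlapped UVR8 and not PHOT1. Against all genes, CRY2 stood at the percentile 89.5 of levels in phyB and 92.4 in WT, LKP2 at 54.0 in phyB and 54.8 in WT, and FKF1 at 20.8 in phyB and 23.9 in WT. Summed over the 9 genes, RPKM came to 469.9 in phyB and 566.6 in WT. The phototropin pair summed to 134 RPKM in phyB and 181 RPKM in WT, CRY1 and CRY2 to 158 RPKM in phyB and 203 RPKM in WT, and the 3 F-box photoreceptors to 56.9 RPKM in phyB and 58.9 RPKM in WT. As a share of the sum, PHOT2 made up 16.1% in phyB and 20.1% in WT, and UVR8 12.4% in phyB and 10.2% in WT.

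Coding length moved with the ratio. Over all genes of 1800 nt or more the median log2 ratio was -0.18 (4010 genes), against 0.23 for those under 600 nt (3803 genes), and 7 of the 9 photoreceptor genes are in the long class. With a smoothed trend on length removed, CRY1 stood at -0.23, CRY2 at -0.25 and PHOT2 at -0.41, while PHOT1 stood at -0.01, CRY3 at -0.0009, FKF1 at -0.13, UVR8 at 0.04, LKP2 at 0.05 and ZTL at 0.09. The ratio of PHOT1 was thus close to that of genes of its length, whose median was -0.20 over the 694 genes within 10% of its length. PHOT2 stood at percentile 6.47 among the 804 genes within 10% of its length, CRY2 at 19.2 among 1819 and CRY1 at 21.5 among 1482. The median of the 9 members was -0.01 with the trend removed, and 6 of the 9 were below 0, beside 50.4% of all genes. What set the trend was not tested.

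**Figure D3:**
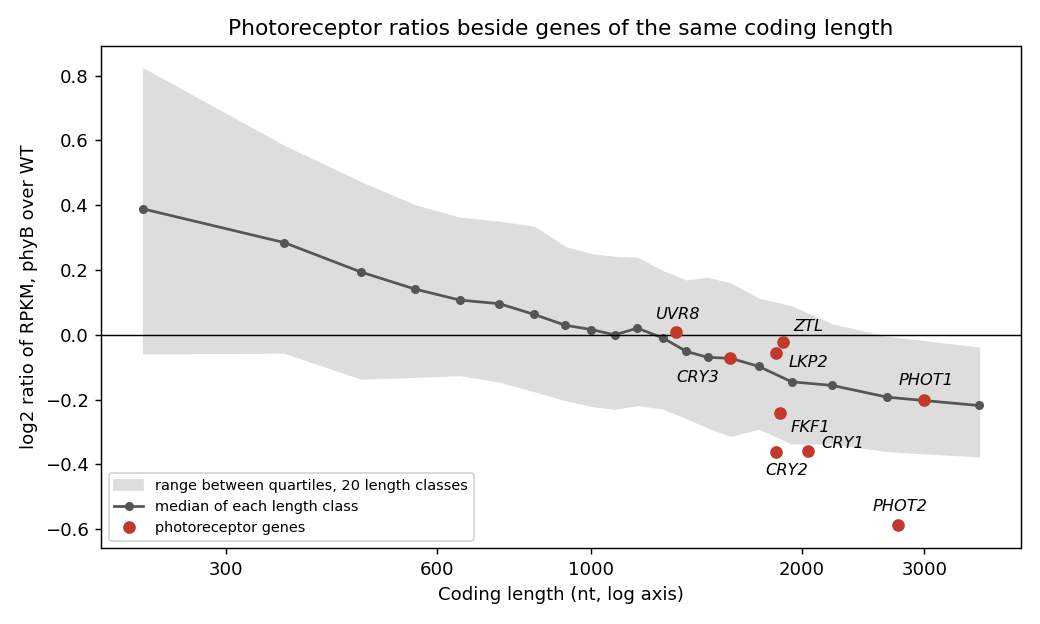
Log2 ratio of RPKM, phyB over WT, against coding length in nt on a log axis, for the photoreceptor genes (red) and for described genes in 20 length classes (line, median; grey, range between the quartiles). PHOT1 lies on the median of genes of its length, at -0.20. PHOT2, at -0.59, lies below the range between the quartiles, and so do CRY1 and CRY2, each at -0.36.

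The region before the annotated start was searched for the evening element AAAATATCT, a sequence found before many clock-controlled genes, since FKF1 is such a gene. Both strands were read, in the 260 bases that run from 250 before the start to base 10 of the transcript. FKF1 was the 1 member with this element, of which it had 2, and 2.50% of all 26691 such windows held it. The window is shown with the element in capitals, read from the TAIR10.1 reference in the direction of the gene, at chr1:25508389-25508648 on the plus strand.
FKF1: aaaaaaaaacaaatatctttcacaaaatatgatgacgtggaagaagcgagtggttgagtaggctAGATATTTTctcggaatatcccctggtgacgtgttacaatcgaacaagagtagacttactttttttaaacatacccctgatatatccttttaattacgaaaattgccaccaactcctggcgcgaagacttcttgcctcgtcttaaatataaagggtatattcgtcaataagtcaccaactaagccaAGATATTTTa
The element, written on the gene's strand as AGATATTTT, spans bases -186 to -178 relative to the start and again bases 1 to 9. The windows of the other members did not hold it, and whether the element bears on any difference between genotypes was not tested.

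The pathway genes of the photoreceptors were described from lists chosen with earlier results of these data known. In these lists 55 distinct genes are named in the reference, and 52 passed the filter. In phyB 2 of these 52 genes were higher by 2-fold or more, beside 3.20% of all genes, and 2 were lower by 2-fold or more, beside 2.18% of all genes. Ratios were below 0 for 40 of the 52 (beside 51.0% of all genes), and their median was -0.21 (beside -0.01). With the length trend removed, 40 were again below 0 (beside 50.4% of all genes), with a median of -0.20.

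Phototropin signalling had no gene at 2-fold among 15, beside 5.38% of all genes. Ratios were below 0 for 13 of the 15, beside 51.0% of all genes, with a median of -0.41. With the length trend removed, 11 were below 0, beside 50.4% of all genes, with a median of -0.25. RPT2, a partner of phototropins with the highest level of the list, stood at 337 RPKM in phyB and 470 RPKM in WT, a log2 ratio of -0.48 with an interval from -0.51 to -0.45. Genes of chloroplast movement, a response shared by both phototropins, are in the list. Among them KAC2 had 8.27 RPKM in phyB and 9.26 RPKM in WT (-0.16), and stood at 0.05 with the length trend removed. The 4 that follow are examples of lower ratios, chosen after their values were seen. The auxilin-like gene JAC1 had 14.2 RPKM in phyB and 23.1 RPKM in WT (log2 ratio -0.70). PMI1 had 46.2 RPKM in phyB and 71.9 RPKM in WT (-0.64), and PMI2 16.8 RPKM in phyB and 25.7 RPKM in WT (-0.62). CHUP1, which ties chloroplasts to actin, had 82.4 RPKM in phyB and 113 RPKM in WT (-0.45). With the length trend removed, JAC1 stood at -0.58, PMI1 at -0.47, PMI2 at -0.51 and CHUP1 at -0.26. The exceptions of the list were PKS4, a phytochrome kinase substrate of phototropism, at 16.4 RPKM in phyB and 8.87 RPKM in WT (0.88), and the phototropism scaffold NPH3, at 44.0 RPKM in phyB and 36.3 RPKM in WT (0.28). PKS1, of the same family as PKS4, went the other way, with 59.2 RPKM in phyB and 86.3 RPKM in WT (-0.54).

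**Figure D4:**
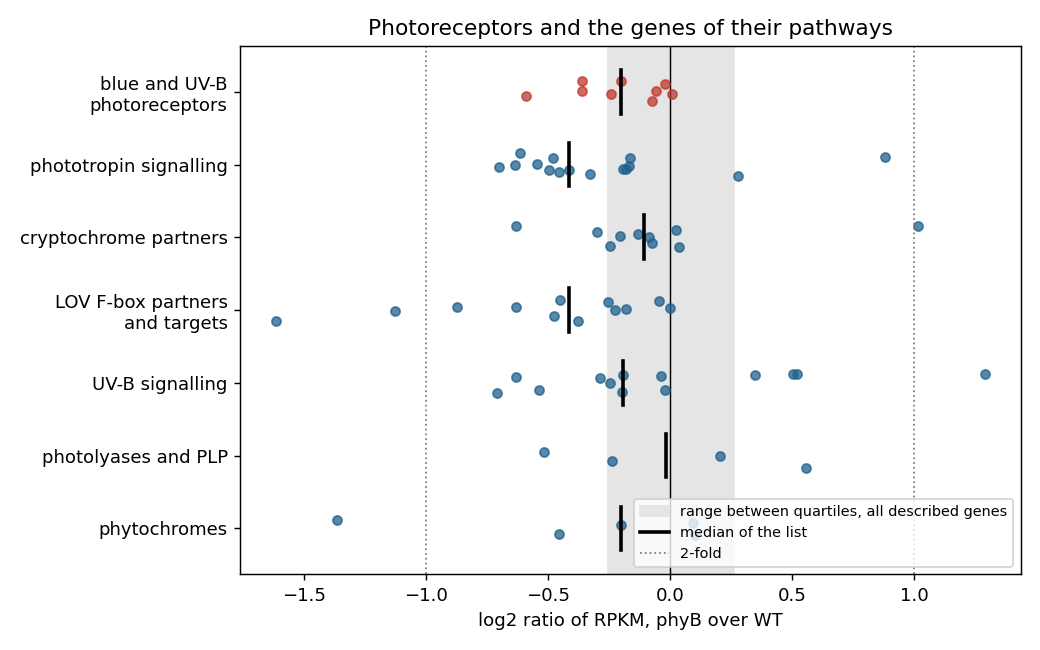
Log2 ratio of RPKM, phyB over WT, of each described gene (points) in the photoreceptor group and in lists of related genes, with the list median (bar), the range between the quartiles of all described genes (grey band) and 2-fold lines (dotted). Medians are -0.20 for the photoreceptors, -0.41 for phototropin signalling and -0.41 for the partners and targets of the F-box photoreceptors.

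Among partners of cryptochromes, 1 of 10 described genes was higher by 2-fold, beside 3.20% of all genes, none was lower by that much, beside 2.18%, and the list median was -0.11. That gene was CIB1, a bHLH factor that binds CRY2 in blue light, with 989 reads and 29.6 RPKM in phyB, against 493 reads and 14.6 RPKM in WT, a log2 ratio of 1.02. It was just short of 2-fold, at 0.99, with the length trend removed, and at 0.97 on the log2(RPKM + 1) scale. Its whole coding sequence lies inside the annotated span of AT4G34540 on the same strand, which itself had 6.97 RPKM in phyB and 8.03 RPKM in WT. SPA1, a partner of COP1 to which cryptochromes bind, had 43.8 RPKM in phyB and 67.8 RPKM in WT (-0.63), and COP1 25.9 RPKM in phyB and 30.8 RPKM in WT (-0.25). With the length trend removed, SPA1 stood at -0.43 and COP1 at -0.11. In this list 7 ratios were below 0, beside 51.0% of all genes, and 3 were above, among them HRB1 at 0.04 and LRB2 at 0.02.

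Among partners and targets of the F-box photoreceptors, 2 of 12 described genes were 2-fold lower, beside 2.18% of all genes, and none 2-fold higher, beside 3.20%, and the median was -0.41. PRR5, a clock repressor that ZTL marks for degradation, had 206 reads and 3.10 RPKM in phyB, against 637 reads and 9.48 RPKM in WT (-1.61), and CDF1, the flowering repressor targeted by FKF1, had 149 reads and 5.0 RPKM in phyB, against 328 reads and 10.9 RPKM in WT (-1.12). The deposited RPKM of PRR5 rests on 2004 nt, more than the coding length of the reference, at which its levels would be higher with the same ratio. On the log2(RPKM + 1) scale CDF1 fell just short of 2-fold, at -0.99, which leaves 1 of the 12. GI, the partner that stabilises ZTL and joins FKF1, had 25.0 RPKM in phyB and 38.6 RPKM in WT (-0.63), and TOC1, another ZTL target, 24.5 RPKM in phyB and 33.5 RPKM in WT (-0.45). ZTL itself, at -0.02, did not share these lower values, and neither did all genes of the list. ASK1 stood at -0.04, ASK2 at 8.6e-05 and CHE at -0.18. With the length trend removed, ZTL stood at 0.09, UBP13 at -0.02, UBP12 at -0.05, ASK2 at -0.17, ASK1 at -0.23 and CHE at -0.27. GI then stood at -0.42 and TOC1 at -0.34. The labels give no hour of harvest.

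UV-B signalling genes had 1 of 13 at 2-fold or more, which was higher, beside 3.20% of all genes, none 2-fold lower, beside 2.18%, and a median of -0.19. The 1 gene was CHS, the entry enzyme of flavonoid synthesis, at 799 RPKM in phyB and 326 RPKM in WT (1.29). The photoprotective genes ELIP1 and ELIP2, also UV-B responsive, were at 3343 and 2925 RPKM in phyB and at 2333 and 2059 RPKM in WT (0.52 and 0.51). Both have coding sequences under 600 nt, and with the length trend removed they stood at 0.39 and 0.37. Binding partners of UVR8 and other factors of the list differed among themselves. MYB13 was at 8.33 RPKM in phyB and 13.6 RPKM in WT (-0.71), and WRKY36 at 16.9 RPKM in phyB and 17.2 RPKM in WT (-0.02). The brassinosteroid factor BES1, which shares 4.62% of its words of 36 nt with other coding sequences, was at 86.7 RPKM in phyB and 68.1 RPKM in WT (0.35), and BIM1 at 32.8 RPKM in phyB and 47.5 RPKM in WT (-0.54). RUP1 and RUP2, which return UVR8 to its resting dimer, were at 60.3 and 76.1 RPKM in phyB and at 69.0 and 86.9 RPKM in WT, each with a log2 ratio of -0.19. HY5, the bZIP factor downstream of UVR8 and cryptochromes, was at 114 RPKM in phyB and 139 RPKM in WT (-0.29), and stood at -0.46 with the length trend removed.

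Of the relatives outside the group, none of 4 differed 2-fold, beside 5.38% of all genes. PLP, a protein with a PAS and a LOV domain and the highest mean level of this list, was at 51.9 RPKM in phyB and 74.2 RPKM in WT (-0.52), and the photolyase-like gene PHR2 at 57.2 RPKM in phyB and 38.9 RPKM in WT (0.56). The 5 phytochrome genes had a median of -0.20, which is also the median of the 9 blue-light and UV-B genes. It was 0.002 with the length trend removed. PHYB was the 1 gene among them at 2-fold. PHYA, the receptor of far-red light, was the most abundant at 170 RPKM in phyB and 159 RPKM in WT (0.10). PHYC was lower in phyB, at 11.4 RPKM in phyB and 15.6 RPKM in WT (-0.45), and PHYE stood at 7.35 RPKM in phyB and 8.44 RPKM in WT (-0.20). PHYD, the closest relative of PHYB, was at 4.65 RPKM in phyB and 4.34 RPKM in WT (0.10), with a counting interval from -0.08 to 0.28.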

How the data were processed

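Messenger RNA of whole seedlings was sequenced, and samples were grouped by genotype as in the labels. Per the file headers, the authors deposited 1 column of reads and 1 of RPKM per genotype. The deposited reads were used as estimated counts, because 0.5 was written in place of 0, in 4100 entries of phyB and 4164 of WT, and all other entries were whole. The 0.5 entries were set to 0. The deposited RPKM values equal the reads per coding length and column total. TAIR10 is named as the build, per the submitters' processing notes. The sources used here give no aligner, no counter, no use of strand and no treatment of reads with several matches. Names, positions and sequences came from RefSeq's TAIR10.1, in which 26692 of 27206 nuclear models had a transcript of the same name, and 96.8% of those with reads had a coding length within 0.5 nt of the implied one.

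Log2 ratios compare the deposited RPKM of phyB with that of WT and use no pseudocount. A column at 0 counts as 3 reads, and no ratio was formed where the other column had at most 3. Intervals are exact conditional intervals at 95% from reads and totals, or from the 2 by 2 table of reads for pairs of members (scipy 1.17.1). The intervals cover counting error only and treat each read as independent. Reads copied by PCR are not independent molecules, so the intervals can be too narrow even for that error. With 1 column per genotype no test was run. The length trend is a lowess fit with a span of 0.3 (statsmodels 0.14.6). Ratio and interval were tested on simulated data. The members and lists were chosen with earlier results of these data known. Named genes are all members, the phytochromes, and in each list the genes at 2-fold with at least 5 RPKM in either genotype or else the gene of highest mean. The rule is met by RPT2, CIB1, PRR5, CDF1, CHS and PLP, and other list genes were chosen after their values were seen. Of 72 list entries, 62 carry their name in the reference and were used. Alternatives were quantile normalization, median scaling, edgeR 4.0.16 factors (TMM, RLE, upper quartile), totals without organelle genes, pseudocounts of 1 and 0.1, removal of the length trend, a 1.5-fold threshold, and other filters. Beside the sequences shown, a further sequence and the motif result that rests on it are not reported here.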

Additional observations from a re-analysis of the deposited data

How the results depend on the processing

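Each member's ratio was recomputed under 9 settings, and 72 of the 81 values stayed within the counting interval. Much of this count follows from the choice of settings. Median scaling adds the same 0.009 to the ratio of each gene, TMM factors 0.005 and RLE factors -0.004. Leaving organelle genes out of the column totals adds 0.005 throughout. Constants this small are narrow beside the counting intervals, so the count of 72 is not a measure of robustness. The 0.009 of median scaling is still more than the distance from 0 of the upper interval ends of CRY3 and FKF1, at -0.004 and -0.005. Whether their intervals exclude 0 therefore depends on the scaling. Removal of the coding-length trend moved CRY1 to -0.23, CRY2 to -0.25, CRY3 to -0.0009, PHOT1 to -0.0082, PHOT2 to -0.41 and ZTL to 0.0933. Quantile normalization moved CRY2 to -0.45 and PHOT2 to -0.66, and upper-quartile factors moved PHOT2 to -0.54. Upper-quartile factors add 0.046 to every ratio, and removal of the trend subtracts its value at each gene's length, -0.18 for PHOT2. Why quantile normalization moved CRY2 and PHOT2, and what set the length trend, was not tested. CRY1, CRY2, CRY3, PHOT1, PHOT2 and FKF1 were below 0 under all 9 settings, LKP2 under 8, ZTL under 7 and UVR8 under 1. No member reached 2-fold under any setting at that threshold. At 1.5-fold, 1 member (PHOT2) did as deposited, but PHOT2 fell short under 6 of the 9 settings, with -0.5838 for TMM factors, -0.5833 for totals without organelle genes, -0.5824 on the log2(RPKM + 1) scale, -0.5792 for median scaling, -0.5424 for upper-quartile factors and -0.4066 with the length trend removed. The count of all genes at 2-fold, 1038 as deposited (617 higher and 421 lower), was 621 on the log2(RPKM + 1) scale, 2302 with no filter, 518 where the mean had to reach 5 RPKM and 3283 at 1.5-fold, which follows from how each criterion is built. It split into 450 higher and 498 lower with the length trend removed. FKF1, with 275 and 328 reads in phyB and WT, is the member whose value depth limits most. No paired analysis was possible because the columns carry no replicate numbers, with 1 per genotype, so no replicate could be left out either.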
